A study of Homo sapiens with 6 samples.

Results

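The GATA factor genes GATA2, GATA3, GATA4, GATA5 and GATA6 were examined for DNA methylation in conventional and reset human pluripotent cells. These are 5 of the 20098 protein-coding genes that GENCODE release 44, in its version for GRCh37, lists on the autosomes and the X chromosome, and they were taken by name, with earlier results of these data known. All 5 were covered in every library. The libraries came from whole-genome bisulfite sequencing of H9, an established embryo-derived stem cell line, with 3 libraries labelled Conventional and 3 labelled Reset. Conventional cells were kept in FGF/KSR medium, with bFGF at 10 ng/ml and KSR (a serum replacement) at 20%. Reset cells came from transfected cells in which DOX, given at 1 μM, had induced NANOG and KLF2; DOX was then withdrawn and the cells were carried in t2iL+Gö, that is 1 μM PD0325901 (a MEK inhibitor), 1 μM CHIR99021 (a GSK3 inhibitor), human LIF and 5 μM of Gö6983 (an inhibitor of protein kinase C). Both groups were grown on mouse embryonic fibroblast feeders at 5% oxygen. Whether the Conventional libraries were made from transfected or parental H9 cells, and at which passage the cells were collected, is not given in the sources used here, so transgene history, medium and cell state cannot be told apart between the groups.

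GATA factors are zinc finger transcription factors that bind DNA at short motifs containing the letters GATA. GATA2 and GATA3 serve in blood and in the trophoblast of the placenta, GATA2 in blood stem and progenitor cells and GATA3 in T cells. GATA4, GATA5 and GATA6 serve in the endoderm and the heart, and GATA6 is an early factor of the extraembryonic endoderm of the embryo. In most mammalian cells CpG-rich promoters carry little methylation while gene bodies and the DNA between genes are heavily methylated, and genes for developmental transcription factors often lie in unmethylated stretches that reach far beyond the promoter.

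Bisulfite treatment converts unmethylated cytosine, so the share of methylated calls at CpGs gives the methylation level of a region in percent. The Conventional libraries held 92023996 to 98004161 calls and the Reset libraries 70329213 to 80199615 calls, or 2.51 to 3.49 calls per CpG, so levels were read over regions, and counts of single CpGs below rest on few pooled calls. Methylated calls made up 84.3 to 84.6% of the calls in Conventional and 29.5 to 30.3% in Reset libraries. As a check of the labels, the promoter of DPPA3, a gene of naive pluripotent cells, stood at 74.3%, 73.7% and 91.5% in Conventional and at 5.38%, 0% and 7.87% in Reset libraries, and the value at 0 rests on 91 calls. The promoter of POU5F1, which encodes OCT4 and is active in pluripotent cells of both kinds, stood at 8.65 to 20.5% and 0 to 4.60%. Over the 5 GATA intervals the calls per CpG, taken relative to each library's own mean, gave a ratio of Reset to Conventional libraries of 1.02 to 1.13. A region was called higher or lower when a quasi-binomial model of its calls, fitted across all regions of the same kind, gave an adjusted p under 0.05. Because most of the genome changed, this threshold let pass unadjusted p-values of up to 0.0400 for promoters, 0.0491 for gene bodies and 0.0483 for tiles, so counts are also given for regions that rose by 10 points or more with no overlap between the groups.

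The sequences below show where the results turn. Each is the stretch of 200 bases with the most CpGs, outside any UTR, within a tile or a stretch of tiles described in the following paragraphs, read from GRCh37 on the strand of the gene, 5′ to 3′, with each CpG in capitals. Those marked as rising belong to the 500-bp tiles with the largest rises within their own gene, and the one marked as falling to the tile with the largest fall in GATA6. Those marked as core belong to the longest stretch of tiles without a call in the gene. This stretch spans the canonical transcription start in GATA3 and GATA6 and begins 3044 bp past it in GATA2. The marks describe the tile or stretch, since some windows of 200 bases hold few calls. The GATA3 upstream window had 6, 10 and 3 calls in the Reset libraries, and the GATA2 upstream window had 1 in Conventional replicate 2. The GATA3 core window stood at 11.8% in Reset replicate 1, on 17 calls, and at 0% in the other libraries.
GATA2 upstream, rising, chr3:128215211-128215410, minus strand, 26 CpGs: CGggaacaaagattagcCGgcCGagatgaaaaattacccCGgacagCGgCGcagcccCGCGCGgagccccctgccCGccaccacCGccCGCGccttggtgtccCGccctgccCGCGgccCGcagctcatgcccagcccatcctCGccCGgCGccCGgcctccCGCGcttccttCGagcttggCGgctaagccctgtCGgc
GATA2 core, chr3:128208371-128208570, minus strand, 30 CpGs: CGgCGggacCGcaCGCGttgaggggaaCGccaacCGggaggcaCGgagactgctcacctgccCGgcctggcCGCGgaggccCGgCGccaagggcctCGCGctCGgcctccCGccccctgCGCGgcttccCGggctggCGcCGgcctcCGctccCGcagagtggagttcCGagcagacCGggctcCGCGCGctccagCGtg
GATA3 upstream, rising, chr10:8078541-8078740, plus strand, 7 CpGs: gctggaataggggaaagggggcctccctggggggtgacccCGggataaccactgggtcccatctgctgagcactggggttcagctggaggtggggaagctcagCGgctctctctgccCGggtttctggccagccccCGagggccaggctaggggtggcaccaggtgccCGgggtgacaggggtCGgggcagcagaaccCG
GATA3 coding exon, rising, chr10:8100503-8100702, plus strand, 16 CpGs: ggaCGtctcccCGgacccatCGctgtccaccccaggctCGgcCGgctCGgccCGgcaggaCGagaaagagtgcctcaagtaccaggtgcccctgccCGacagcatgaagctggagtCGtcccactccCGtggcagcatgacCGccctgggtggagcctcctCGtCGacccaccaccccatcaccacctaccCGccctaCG
GATA3 core, chr10:8096303-8096502, plus strand, 27 CpGs: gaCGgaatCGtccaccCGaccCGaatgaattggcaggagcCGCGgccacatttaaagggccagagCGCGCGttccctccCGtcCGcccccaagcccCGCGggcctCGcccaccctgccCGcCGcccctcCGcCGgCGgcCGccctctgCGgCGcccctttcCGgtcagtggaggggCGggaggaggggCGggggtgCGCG
GATA5 upstream, rising, chr20:61057501-61057700, minus strand, 11 CpGs: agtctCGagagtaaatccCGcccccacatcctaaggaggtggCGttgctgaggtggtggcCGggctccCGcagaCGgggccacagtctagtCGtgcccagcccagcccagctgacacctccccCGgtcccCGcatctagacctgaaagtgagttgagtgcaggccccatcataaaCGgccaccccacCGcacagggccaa
GATA6 core, chr18:19745567-19745766, plus strand, 37 CpGs: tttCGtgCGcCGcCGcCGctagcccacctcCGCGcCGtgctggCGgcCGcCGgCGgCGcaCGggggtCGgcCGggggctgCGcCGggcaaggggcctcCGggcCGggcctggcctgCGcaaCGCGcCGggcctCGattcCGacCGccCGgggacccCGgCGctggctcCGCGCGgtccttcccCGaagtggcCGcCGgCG
GATA6 intron, falling, chr18:19769001-19769200, plus strand, 5 CpGs: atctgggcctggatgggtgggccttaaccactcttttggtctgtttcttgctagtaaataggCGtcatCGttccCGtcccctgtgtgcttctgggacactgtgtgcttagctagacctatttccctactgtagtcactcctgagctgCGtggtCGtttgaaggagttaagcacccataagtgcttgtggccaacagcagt
No sequence is shown for GATA4.

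The first question was whether the promoters of the GATA genes followed the loss of methylation seen over the genome. They did not: of 26 promoters, each spanning 1000 bp before and 500 bp after a distinct transcription start, 19 were called higher in Reset cells, 1 was called lower and 6 were not called. Over the 143219 promoters tested, 2.76% were called higher and 77.2% lower. A rise of at least 10 points without overlap was seen at 11 of the 26, against 1.13% of all promoters. The median difference was 3.01 points over the GATA promoters and -23.7 points over all promoters. Many of these windows share most of their bases, as with GATA2-201, GATA2-206 and GATA2-207, so the 26 are far fewer independent measurements. All but 3 of them lay under 20% in Conventional cells, which leaves little room to fall, and of the 11061 canonical promoters under 20% in Conventional cells 7.1% were called higher.

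The canonical promoters, 1 per gene, differed widely in how far they rose. GATA2 (GATA2-201, transcription start at 128212044 on chromosome 3, 89 CpGs in the window) stood at 3.67%, 1.49% and 1.25% in the Conventional libraries and at 19.0%, 18.6% and 17.8% in the Reset libraries. The groups were far apart, and the rise from 2.14% ± 1.33 to 18.5% ± 0.622 (SD, n = 3) had an adjusted p of 8.65e-07. GATA5 (GATA5-201, start at 61051051 on chromosome 20, 153 CpGs) stood at 1.38%, 0.730% and 0.324% against 7.14%, 8.04% and 3.40%. Here too every Reset library was above every Conventional one, with a difference of 5.38 points and an adjusted p of 0.000116. GATA4 (GATA4-206, start at 11561711 on chromosome 8, 87 CpGs) stood at 0.769%, 0.535% and 0.535% against 4.80%, 4.15% and 1.91%, a difference of 3.01 points (adjusted p = 0.00741). GATA3 (GATA3-202, start at 8096651 on chromosome 10, 103 CpGs) stood at 0.612%, 0% and 0.541% against 2.21%, 2.02% and 1.52%, where the value at 0 rests on 274 calls and allows up to 1.09%. Its difference of 1.53 points had an adjusted p of 0.0236, which rose to 0.0918 without Conventional replicate 2, to 0.0554 without Reset replicate 1 and to 0.0575 without Reset replicate 2. As a mean over CpGs the difference was 2.80 points. GATA6 (GATA6-201, start at 19749550 on chromosome 18, 120 CpGs) stood at 0.452%, 2.01% and 0.571% against 0.794%, 0.391% and 0.442%, with overlapping groups and an adjusted p of 0.504. Of all 19300 canonical promoters tested, 4.31% were called higher and 68.8% lower, whereas 4 of these 5 were called higher and none lower.

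**Figure D1:**
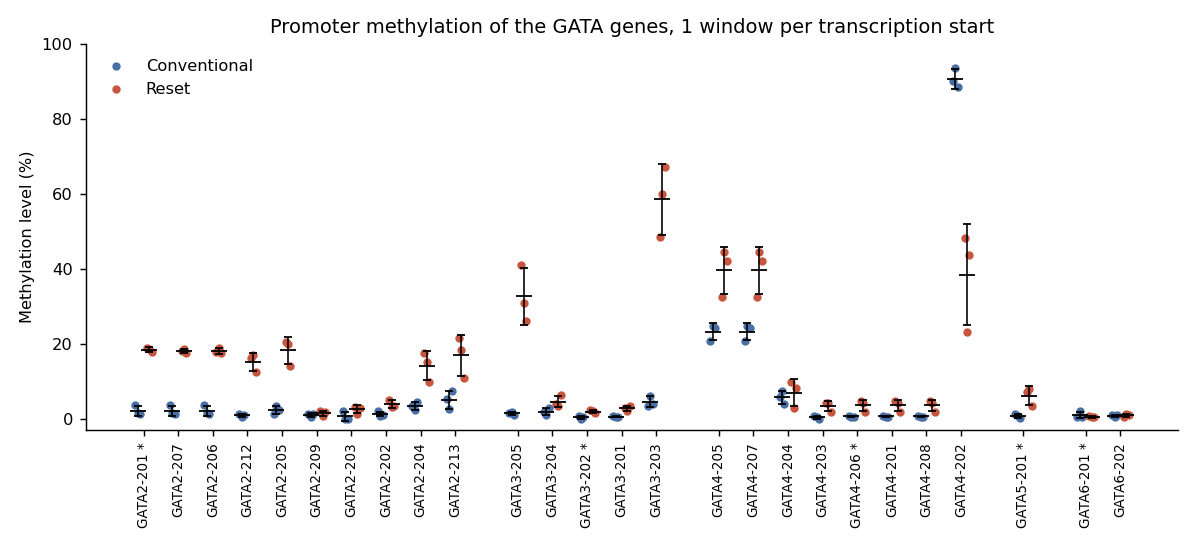
Promoter methylation level in percent for each of the 26 transcription starts of the GATA genes, in order of transcription, with 1 point per library, the mean and SD of 3 libraries as bars, and an asterisk at the canonical transcript. Reset points (red) lie above Conventional points (blue) at most starts of GATA2, at GATA3-205 and GATA3-203 and at GATA4-205 and GATA4-207, while GATA4-202 fell from 90.6 to 38.4%.

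GATA2, GATA3, GATA4 and GATA6 have further starts, and differences between the starts of a gene were not tested. In GATA3, the start of GATA3-203, which lies inside the gene, went from 3.42%, 6.19% and 3.96% to 48.4%, 60.0% and 67.2% (adjusted p = 7.94e-09). The most upstream start, that of GATA3-205, went from 1.44%, 1.82% and 0.962% to 41.0%, 30.8% and 26.1% (adjusted p = 1.20e-07). The start of GATA3-204 between them stood at 1.87%, 0.957% and 2.78% against 3.88%, 3.46% and 6.21% and was not called (adjusted p = 0.0556). The groups did not overlap at any of these 3 starts. In GATA2, 8 of 10 starts were called higher, and those that were not, GATA2-203 and GATA2-209, lie close together inside the gene, at 0.656% and 0.951% in Conventional and 2.49% and 1.49% in Reset cells. In GATA4, the most upstream starts, GATA4-205 and GATA4-207, which are 1 base apart, went from 20.7%, 24.8% and 24.3% to 32.6%, 44.4% and 42.0% (adjusted p = 0.00217). The only GATA promoter called lower was that of GATA4-202, near the end of the gene, with 90%, 93.5% and 88.5% in Conventional and 48.4%, 23.1% and 43.8% in Reset libraries (adjusted p = 1.24e-07). In GATA6 the other start, GATA6-202, stood at 0.794% ± 0.312 and 0.915% ± 0.371 (SD, n = 3) and was not called (adjusted p = 0.721).

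Gene bodies separated the GATA genes into those that rose and those that fell. Of the 19622 protein-coding gene bodies tested, 97.6% were called lower and 1.12% higher, and the median difference was -48.3 points. The GATA2 body (chr3:128198270-128212044, 720 CpGs) stood at 8.01%, 5.81% and 9.06% in Conventional and at 14.7%, 13.7% and 12.97% in Reset libraries. It rose by 6.16 points (adjusted p = 1.71e-05), and by 3.78 points without its first 2000 bp (adjusted p = 0.00125). The GATA3 body (chr10:8087341-8117161, 1008 CpGs) went from 17.1%, 16.1% and 16.0% to 21.8%, 23.1% and 25.6%. It rose by 7.06 points (adjusted p = 6.57e-06). Ordered by difference from the largest rise to the largest fall, GATA3 ranked 162 and GATA2 173 among these bodies. Both bodies lay under 20% in Conventional cells, a group of 566 gene bodies in which 36.6% were called higher.

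GATA4, GATA5 and GATA6 fell over the body, each by less than the median gene. The GATA4 body (chr8:11534468-11617511, 1983 CpGs) went from 35.9%, 38.3% and 36.8% to 29.1%, 26.5% and 29.4% and fell by 8.67 points (adjusted p = 7.78e-08), while its mean over CpGs fell by 5.19 points. The GATA5 body (chr20:61038553-61051051, 516 CpGs) went from 58.2%, 59.2% and 60.3% to 31.6%, 34.6% and 35.5% and fell by 25.3 points (adjusted p = 2.70e-10). The GATA6 body (chr18:19749550-19782491, 770 CpGs) went from 50.1%, 47.0% and 47.2% to 20.1%, 16.0% and 15.6% and fell by 30.9 points (adjusted p = 1.43e-12). In all 3 every Reset library was below every Conventional library. Set beside the genes within 5 points of the same Conventional level, GATA4 and GATA5 ended higher than most. The level of GATA4 includes methylation gained inside its body, described below, so it is not only kept methylation. Of 394 such genes 96.2% ended below GATA4, where the median was 13.1% against 28.3% for GATA4. Of 1230 such genes 96.3% ended below GATA5, with a median of 22.3% against 33.9%. GATA6 at 17.2% was close to the median of 17.5% of its 644 comparison genes. GATA3 ended above 89.8% of 197 comparison genes and GATA2 above 63.3% of 275.

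**Figure D2:**
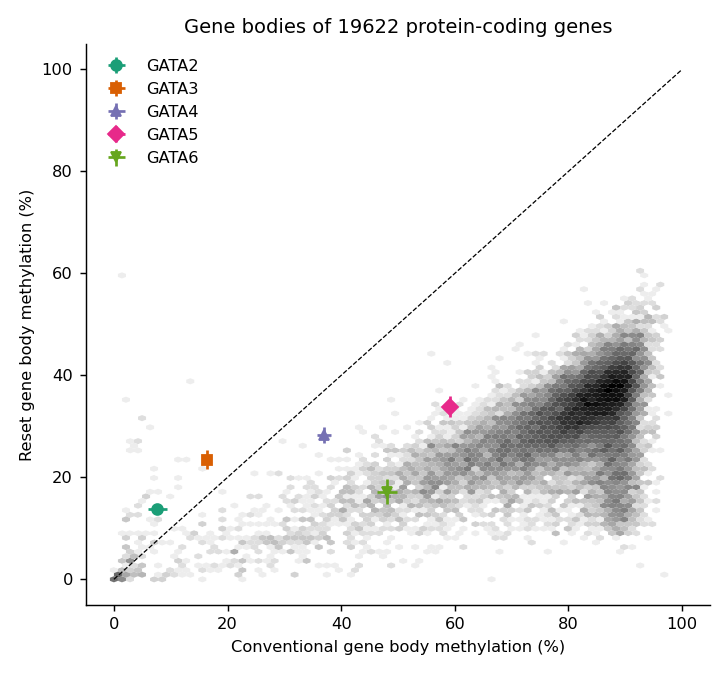
Gene body methylation in Reset against Conventional cells, both in percent, for 19622 protein-coding genes (grey hexagons, darker for more genes on a log scale) and for the GATA genes (coloured points, mean and SD of 3 libraries), with equal levels on the dashed line. GATA2 and GATA3 lie above the line, GATA4 and GATA5 lie below it near the upper edge of the grey cloud, and GATA6 lies within the cloud.

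The change in body level was compared between genes within each library, over 10 pairs. In 8 pairs the difference between the genes did not overlap between Conventional and Reset libraries, with an exact two-sided permutation p of 0.1, the smallest that 3 against 3 libraries can give, and an adjusted p of 0.125. In the pair with the largest change, GATA3 was 31.7 points lower than GATA6 in Conventional and 6.29 points higher in Reset cells. The remaining pairs were GATA2 with GATA3, whose changes (GATA2 minus GATA3) differed by -0.898 points (exact permutation p = 0.6, adjusted 0.6), and GATA5 with GATA6, whose falls were 5.58 points apart (exact permutation p = 0.3, adjusted 0.333). No pair could pass a threshold of 0.05 in this design. The genes started at different levels, the pairs share genes and pairs of other genes were not compared. The count of pairs without overlap therefore has no background to be read against.

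To see where within each gene methylation was gained or lost, levels were computed in 500-bp tiles of a fixed genome grid, from 10 kb upstream of the most upstream start to the end of the gene. Of 445 tiles with a CpG 344 had at least 10 calls in every library. Of these, 149 were called lower, 108 were called higher and 87 were not called. Among the 199 tiles with at least 20 calls in every library the balance turned, with 59 called lower and 83 higher. These are a subset of the tiles. No genome share at this minimum is given here, so the turn has no background to be read against. The genome shares that follow are for tiles with at least 10 calls. Over the 1982370 tiles of the genome tested in the same fit, 95.9% were called lower and 0.737% higher. A rise of 10 points or more without overlap was found in 88 of the 344 GATA tiles and in 0.472% of all tiles. Tiles called higher made up 44.2% of those tested in GATA2, 67.7% in GATA3, 25.5% in GATA4, 17.9% in GATA5 and 5.00% in GATA6. The 117 GATA tiles over 80% in Conventional cells were all called lower, as were 1686727 of the 1688603 such tiles of the genome. The median of the GATA tiles in this class went from 90.2 to 39.99%, against 93.0 and 34.8% over those of the genome. The tiles that rose were, with 3 exceptions, among the 170 tiles under 20% in Conventional cells, of which 105 were called higher and 3 lower. In the genome 20.7% of the 66065 tiles under 20% in Conventional cells were called higher, and 9350 were called lower.

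In GATA2 tiles called higher lay upstream of the gene, in its first part and farther downstream on the other side of an unmethylated core. The 3 tiles at its 3′ end and others upstream of the gene were called lower. Stretches of neighbouring tiles with the same call are given here and below as descriptions, with no test, since the calls chose them; tiles with too few calls to be tested were skipped and did not end a stretch. From -956 to 3043 bp of the canonical start (chr3:128209001-128213000) 8 tested tiles in a row were called higher. As a whole this stretch went from 1.93%, 1.55% and 1.56% to 18.0%, 18.1% and 15.0%. Directly downstream, at chr3:128206501-128209000, none of 5 tiles was called, with 1.38%, 0.460% and 1.11% against 2.91%, 0.777% and 2.36% over 223 CpGs. This stretch holds the GATA2 core sequence and the start of the antisense RNA gene GATA2-AS1, whose promoter stood at 0.887% ± 0.506 and 1.43% ± 0.588 (SD, n = 3). The largest rise was at chr3:128215001-128215500, upstream of the gene, the tile of the first sequence, with 15.9%, 4.17% and 10.5% against 26.3%, 50% and 38.8% (adjusted p = 6.03e-05). The next was at chr3:128210001-128210500 in an intron, with 1.82%, 2.17% and 0% against 36.0%, 34.5% and 16.3% (adjusted p = 6.89e-06), where the value at 0 rests on 37 calls and allows up to 8.11%. The tile at chr3:128212501-128213000 ranked next with 7.84% ± 8.99 and 35.2% ± 8.80 (SD, n = 3; adjusted p = 0.00278). At the 3′ end, in tiles named after their values were seen, the one at chr3:128198001-128198500 went from 68.3% ± 1.53 to 35.5% ± 4.93 (SD, n = 3; adjusted p = 5.63e-05), and those at chr3:128198501-128199000 and chr3:128199001-128199500 fell by 21.7 points (adjusted p = 0.00423) and, with overlapping groups, fell by 19.6 points (adjusted p = 0.0193). The tiles at chr3:128213501-128214000 and chr3:128214001-128214500, between the start and the tile of the largest rise, were also called lower. They fell by 23.7 points, with overlapping groups (adjusted p = 0.0109), and by 42.6 points (adjusted p = 8.29e-05). They too are named after their values were seen. Farther upstream, 7 tested tiles called lower in a row at chr3:128217501-128222500 went from 84.4% ± 1.74 to 33.9% ± 3.75 (SD, n = 3). The largest fall, of 58.0 points, was at chr3:128220001-128220500 (adjusted p = 4.23e-05).

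GATA3 had the largest share of tiles called higher and the largest single rise. In Conventional cells 54 of 65 tiles were under 20%, most of them from the upstream end of the interval to about 10 kb past the canonical start, with a break at chr10:8082501-8083000, which stood at 24.4%, 26.8% and 21.6%. Of these 54 tiles 44 were called higher, and their median went from 2.26 to 32.6%. The largest rise was at chr10:8078501-8079000, far upstream of the canonical start and the tile of the first GATA3 sequence, which went from 0%, 2.78% and 4.88% to 85%, 64.3% and 70% (adjusted p = 3.43e-08). The value at 0 rests on 26 calls and allows up to 11.5%, and 1 Reset library had only 10 calls here. The tile at chr10:8100501-8101000, which overlaps a coding exon, went from 1.32%, 1.67% and 0% to 53.1%, 78.6% and 80.4% (adjusted p = 1.30e-09), with 42 calls and a limit of 7.14% behind the value at 0. The tile at chr10:8077501-8078000 near the end of the interval went from 2.44%, 4.44% and 0% to 72.5%, 64.2% and 71.4% (adjusted p = 3.40e-09).

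Inside the GATA3 gene 15 tested tiles in a row were called higher, from 350 to 9849 bp past the canonical start, and the stretch went from 4.34%, 5.49% and 4.67% to 30.9%, 41.0% and 42.0%. Of the 184 CpGs in it with at least 5 pooled calls in each group (median 9 in Conventional and 7 in Reset cells), 62 were at 50% or more in Reset and 1 was in Conventional cells. Beside it, at -1650 to 349 bp (chr10:8095001-8097000), none of 4 tiles was called and the level was 0.836%, 0.296% and 1.07% against 1.95%, 1.40% and 2.40%, so that every Reset library lay above every Conventional one. The canonical start and the GATA3 core sequence lie in this stretch, and of 95 CpGs with enough pooled calls (median 9 and 8) 84 had no methylated call in Reset and 90 had none in Conventional cells. Near the 3′ end of the gene, where Conventional cells were methylated, 9 tested tiles in a row were called lower and went from 85.8% ± 1.96 to 41.6% ± 5.13 (SD, n = 3), with the largest fall, of 58.8 points, at chr10:8113501-8114000 (adjusted p = 2.63e-06). The stretch called higher and the stretch called lower thus ended at 37.98% and 41.6% in Reset cells, having stood at 4.84% and 85.8% in Conventional cells.

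**Figure D3:**
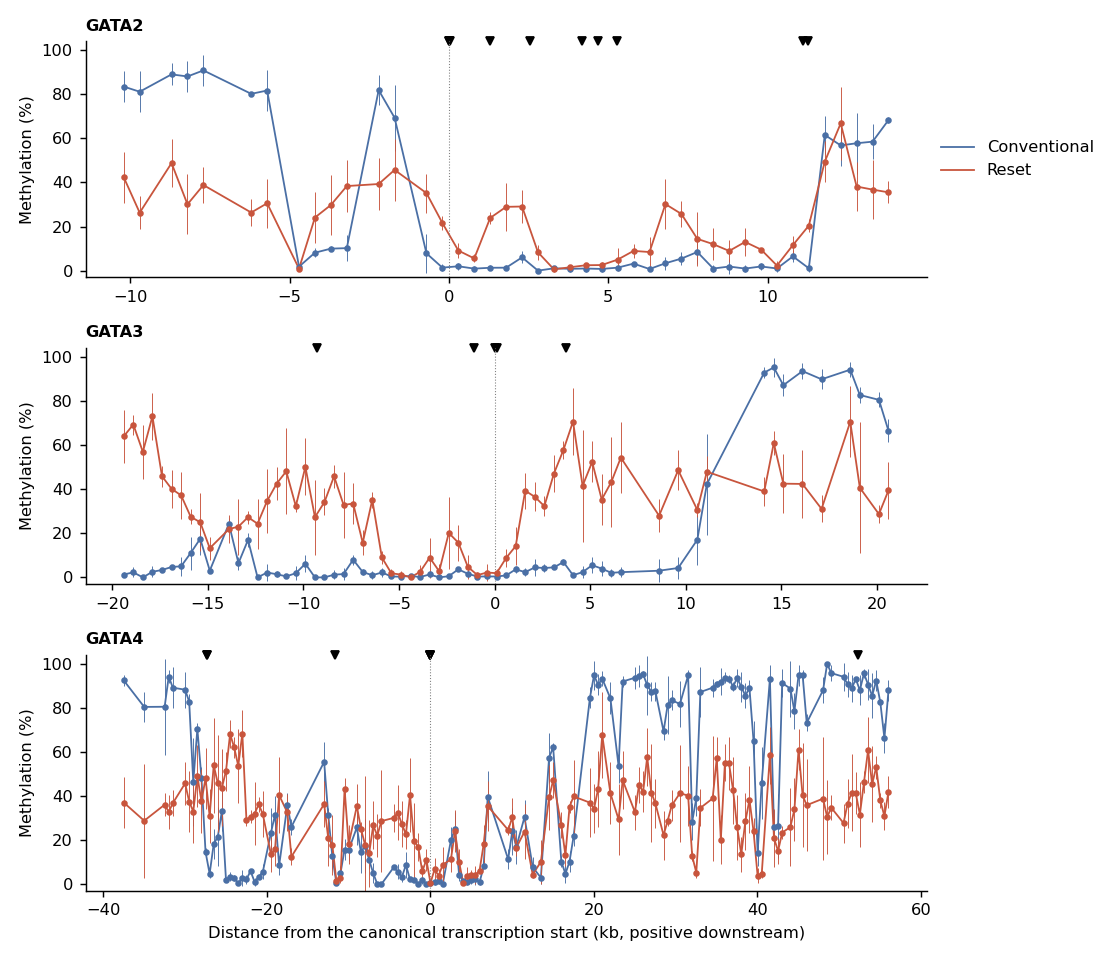
Methylation level in percent of 500-bp tiles of GATA2, GATA3 and GATA4 against distance in kb from the canonical transcription start, with points and bars for the mean and SD of 3 Conventional (blue) or 3 Reset (red) libraries, lines joining the tiles that were tested, and black triangles at all transcription starts. Reset levels rise above Conventional levels over much of the unmethylated stretches and lie below them where Conventional cells are highly methylated. They come within a few points of the Conventional level in several tiles at or around the canonical start of GATA3 and GATA4, and downstream of it in GATA2.

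GATA4 showed both gain and loss, and its longest stretches of each lay far apart. Of 137 tiles tested 65 were called lower, 35 higher and 37 were not called. The largest rises lay in an intron of the long transcripts that start upstream, at -25210 to -20211 bp of the canonical start. There 10 tested tiles in a row were called higher, and the stretch went from 3.34%, 2.35% and 2.71% to 46.3%, 51.5% and 53.7% over 239 CpGs. Of the 165 CpGs in it with enough pooled calls (median 10 and 8), 95 were at 50% or more in Reset and none was in Conventional cells. Its highest tile, chr8:11538501-11539000, went from 1.74%, 0% and 7.06% to 56.3%, 71.9% and 76.7% (adjusted p = 3.18e-10), where the value at 0 rests on 58 calls and allows up to 5.17%. The tiles ranked next rose by 64.6 and 59.4 points (adjusted p = 4.92e-10 and 1.51e-10). These 3 tiles hold 42, 28 and 40 CpGs. In the downstream part of the gene 35 tested tiles in a row were called lower, from 19290 to 41789 bp past the canonical start, with 82.6% ± 0.960 against 36.4% ± 1.84 (SD, n = 3). The largest fall, of 75.9 points, was in an intron at chr8:11599501-11600000, from 89.5% ± 6.63 to 13.6% ± 7.93 (SD, n = 3; adjusted p = 2.72e-07).

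GATA5 gained methylation mainly upstream. Of 39 tiles tested 26 were called lower, 7 higher and 6 were not called. The largest rise was at chr20:61057501-61058000, which holds the GATA5 sequence, with 4.35%, 18.8% and 6.38% against 34.7%, 50% and 36.4% (adjusted p = 6.02e-05). It is part of 3 tested tiles in a row, chr20:61057001-61058500, that went from 19.4% ± 6.18 to 43.0% ± 10.8 (SD, n = 3). Closer to the gene, the tile at chr20:61053001-61053500 went from 16.2%, 6.67% and 19.2% to 32.7%, 33.9% and 44.9% (adjusted p = 0.000200). The rise with the lowest p in GATA5 was in the tile just upstream of the start, chr20:61051501-61052000, within the promoter window, which went from 0.572% ± 0.528 to 12.2% ± 4.13 (SD, n = 3; adjusted p = 1.11e-06) and is named after its values were seen. Over the start itself, at chr20:61050501-61051500, neither of 2 tiles was called, with 0.339% ± 0.294 and 1.12% ± 1.01 (SD, n = 3). From 2551 to 12550 bp past the start 17 tested tiles in a row were called lower and went from 84.2%, 86.6% and 89.7% to 44.5%, 48.8% and 48.7%. The largest fall, of 66.8 points, was at the upstream end at chr20:61061001-61061500 (adjusted p = 2.78e-08).

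In GATA6 no change was called over most of the unmethylated stretch. From -4549 to 2450 bp of the canonical start (chr18:19745001-19752000) none of 14 tiles was called. Over the 569 CpGs of this stretch the level was 0.826%, 1.15% and 1.09% in Conventional and 1.23%, 1.77% and 0.848% in Reset libraries, with overlapping groups. It includes the GATA6 core sequence and the start of the antisense RNA gene GATA6-AS1, whose promoter stood at 1.23% ± 1.17 and 0.553% ± 0.691 (SD, n = 3). Of 24 tiles under 20% in Conventional cells 3 were called higher and 2 lower, against 13648 and 9350 of 66065 genome-wide. The tiles called lower, named after their values were seen, at chr18:19753501-19754000 and chr18:19756001-19756500, went from 8.83% ± 3.32 to 1.89% ± 1.98 and from 11.2% ± 3.27 to 3.06% ± 3.03 (SD, n = 3). The largest rise, at chr18:19752501-19753000, went from 3.70%, 4.35% and 8.70% to 34.5%, 18.5% and 14.3% (adjusted p = 0.00430).

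The intron and 3′ part of GATA6 held the largest falls of any GATA gene. Repeats were not annotated here, so whether these tiles lie in repeated sequence was not tested. At chr18:19769001-19769500, the tile of the last sequence, the level went from 91.7%, 100% and 100% to 0%, 9.52% and 0% (adjusted p = 2.60e-08). The tile has 5 CpGs, and the values at 0 rest on 14 and 10 calls, which allow up to 21.4% and 30%. At chr18:19764001-19764500 the level went from 100%, 100% and 89.5% to 15.4%, 0% and 5.56% (adjusted p = 4.86e-08), where the value at 0 rests on 17 calls and allows up to 17.6%. At chr18:19764501-19765000, with 12 CpGs and 39 to 52 calls per library, it went from 89.4%, 92.3% and 88.5% to 10.0%, 2.38% and 2.17% (adjusted p = 1.51e-10). Of the 27 GATA6 tiles over 80% in Conventional cells 5 were under 10% in Reset cells, or 18.5%, against 6.89% of all such tiles of the genome and none of the 90 such tiles of the other GATA genes. As a whole, the 29 tested tiles called lower in a row from 10451 bp past the start went from 86.7% ± 1.60 to 30.7% ± 1.10 (SD, n = 3).

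**Figure D4:**
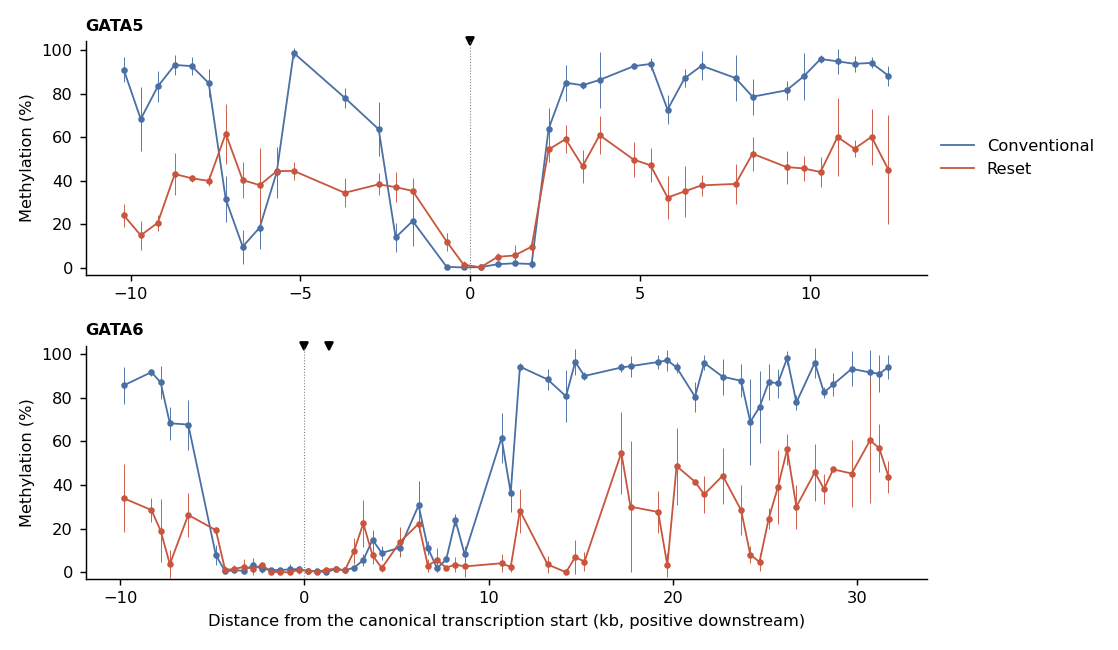
Methylation level in percent of 500-bp tiles of GATA5 and GATA6 against distance in kb from the canonical transcription start, with points and bars for the mean and SD of 3 libraries per group, lines joining the tiles that were tested, and black triangles at all transcription starts. Around the GATA6 start both groups lie near 1% over 7000 bp, and downstream several Reset tiles (red) fall to near 0 where Conventional tiles (blue) lie around 90%.

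The gain is given here by the number of CpGs in a tile, as a description with no test. Among GATA tiles under 20% in Conventional cells, 30 of 60 tiles with 30 or more CpGs were called higher, and their median level in Reset cells was 5.08%. Of the 82 tiles with 10 to 29 CpGs 61 were called higher, with a median of 28.1%. Of the 28 tiles with under 10 CpGs 14 were called higher, with a median of 24.8%. For all tiles of the genome under 20% in Conventional cells, the shares called higher were 16.3%, 25.7% and 21.7% in these classes. In GATA3 the median difference was 2.78 points in tiles with 30 or more CpGs and 34.2 points in tiles with 10 to 29. In GATA2 the same medians were 7.13 and 11.6 points and in GATA4 11.3 and 22.1 points. In GATA5, with 6 and 3 such tiles, they were 3.49 and 23.1 points. In GATA6 they were 0.306 and -1.31 points. Across the 170 tiles Pearson's r between CpG number and difference was -0.272 and Spearman's rho was -0.298, and within genes r ranged from -0.801 over the 9 GATA5 tiles to 0.0671 over the 54 GATA4 tiles, with 0.0160 over the 24 GATA6 tiles. Neighbouring tiles share the same libraries and differ in depth with CpG number, so these correlations are given as a description.

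**Figure D5:**
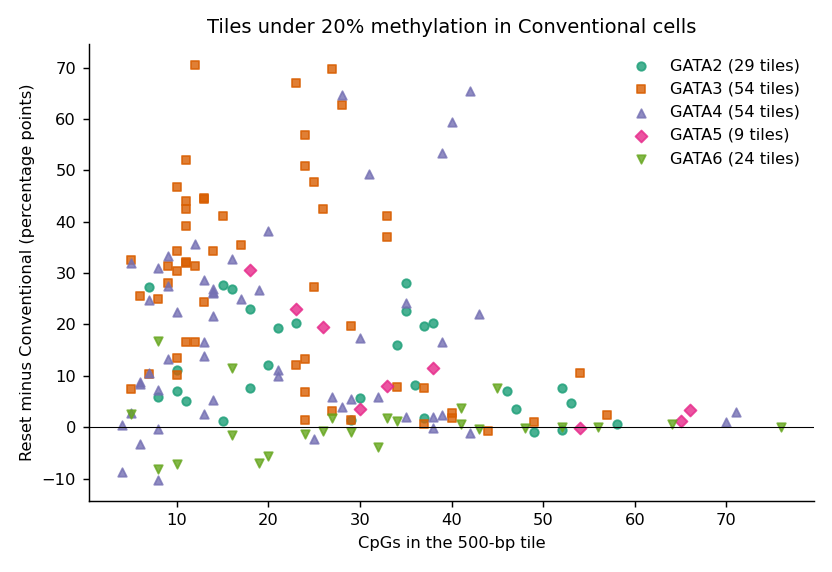
Difference in methylation level, Reset minus Conventional in percentage points, against the number of CpGs in each 500-bp tile, for the 170 GATA tiles under 20% in Conventional cells, with 1 point per tile and 1 symbol per gene. The differences of GATA3 are largest between 10 and 29 CpGs, a group of GATA4 tiles with about 30 to 42 CpGs rose by around 50 points or more, and most GATA6 tiles lie near 0, with the largest rise at 16.8 points.

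Other genes start within the GATA intervals, all of them for non-coding RNAs. The promoter of GATA3-AS1, antisense to GATA3, stood at 1.37%, 0.722% and 1.92% in Conventional and 4.27%, 1.40% and 2.97% in Reset libraries, with overlapping groups (exact permutation p = 0.2). That of ENSG00000232638 upstream of GATA3 stood at 0.402% ± 0.124 and 3.86% ± 3.59 (SD, n = 3; exact permutation p = 0.4). That of ENSG00000272050 upstream of GATA5 stood at 17.3%, 16.99% and 20.6% in Conventional and 32.8%, 36.6% and 40.5% in Reset libraries, without overlap (exact permutation p = 0.1). In GATA6, ENSG00000264012 stood at 7.07% ± 2.33 and 3.21% ± 1.63 (SD, n = 3; exact permutation p = 0.2), and RNU6-702P, a copy of a small nuclear RNA gene in the intron, at 54.7%, 61.4% and 45.5% against 14.0%, 8.82% and 0%, without overlap (exact permutation p = 0.1) and with 65 calls behind the value at 0.

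A list of 27 genes that work with GATA factors or beside them in blood, trophoblast, endoderm and heart was read in the same promoter fit. At the canonical promoter 7 were called higher, 7 lower and 13 were not called, where 4.31% of all canonical promoters were called higher and 68.8% lower, and 7.1% of those under 20% in Conventional cells were called higher. The median difference was -0.229 points against -9.59 points for all canonical promoters. The promoters called higher were those of NKX2-5, TBX5, TBX20 and HAND2, which encode transcription factors of the developing heart, TAL1 of blood, EOMES of mesoderm, endoderm and trophoblast, and FOXA1 of endoderm. Other heart factors of the list were not called, with HAND1 at a difference of 1.09 points (adjusted p = 0.185), SRF at -1.21 points (adjusted p = 0.214), MEF2C at -3.03 points (adjusted p = 0.101) and ZFPM2, a cofactor of GATA4, at -5.62 points (adjusted p = 0.0504). Those called lower were HNF4A, of liver and gut endoderm, GATA1, LMO2, KLF1, SPI1 and RUNX1, which act in blood, and ZFPM1, a cofactor of GATA factors, whose groups overlapped. Beyond the 4 with the largest change, these names were given after their values were seen. NKX2-5 rose the most, from 1.72%, 0.926% and 4.92% to 47.0%, 38.0% and 47.2% (adjusted p = 1.59e-08). HNF4A fell the most, from 93.9%, 98.1% and 93.6% to 0%, 3.15% and 1.64% (adjusted p = 3.55e-11). GATA1, the GATA gene of red blood cells and not among the 5, fell from 84.4%, 85.0% and 81.6% to 22.8%, 15% and 30% (adjusted p = 2.09e-08). LMO2, a partner of GATA factors in blood, fell from 89.1% ± 3.87 to 42.9% ± 9.95 (SD, n = 3; adjusted p = 2.48e-06). The list holds promoters of both kinds, 21 of them under 20% in Conventional cells, and all 7 that rose were among those.

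The genes most like each GATA gene were sought among 19163 protein-coding genes by the root mean square difference over 12 values, the canonical promoter and gene body levels in 6 libraries. For GATA2 they were LHX5, OTP and HOXC4, at 2.82, 2.88 and 2.90 points. For GATA3 they were CDKN2A, LHX2 and SOX9, at 1.46, 2.40 and 2.49 points. For GATA4 they were CYP26B1, SALL2 and NES, at 2.63, 2.95 and 3.22 points, and for GATA5 ALX4, FOXP4 and CPXM1, at 2.14, 2.32 and 2.84 points. For GATA6 they were PSMA7, SLC38A2 and ATP5PD, at 1.26, 1.27 and 1.28 points. LHX5, for example, went from 1.496 to 16.4% at the promoter and from 4.27 to 14.5% over the body, and PSMA7 went from 0.958 to 0.755% and from 49.2 to 16.2%.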

How the data were processed

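Genomic DNA of 3 Conventional and 3 Reset cultures of H9 cells was sonicated, ligated to methylated adaptors, bisulfite treated and amplified for 11 cycles. Per the methods, the authors used Trim Galore to trim the reads and Bismark to align them to the GRCh37 genome. For Bismark the submitters' processing notes give version 0.9.0, together with Bowtie2, while the methods of the paper give another version. No step that removed duplicate reads is given in the sources used here. The authors deposited raw counts per cytosine, 1 of methylated and 1 of unmethylated calls, without normalization, and no replicates were pooled. Positions lay at a CpG of GRCh37 in 99.8% of cases in each library when counted from 0, and printed coordinates count from 1. Calls on both strands of a CpG were summed. Total calls per library ranged from 70329213 to 98004161, and limits for values at 0 (3 calls of the total) cover counting error only.

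Transcripts were those of GENCODE 44 lifted to GRCh37. Promoters, gene bodies of protein-coding genes and 500-bp tiles entered the test if each library had 10 or more calls. The test was a likelihood-ratio F test of a quasi-binomial model of the calls, with the dispersion squeezed by limma 3.58.1 and kept at 1 or more, and Benjamini-Hochberg adjustment over all regions of a kind. Single regions and differences between genes were compared with two-sided exact permutation tests, which give no p below 0.1 here. The test was tested on simulated data. Python 3.11.15, numpy 2.4.6, scipy 1.17.1 and R 4.3.3 were used. Between libraries of a group the mean chi-square per promoter was 1.58 to 2.09, and all libraries were counted. This value takes calls as independent and no removal of duplicate reads is known. It therefore does not show that the libraries differ beyond sampling. The paper calls them biological replicates, but the labels do not say what separated them, so p-values refer to these libraries only. In the model they rest on the number of calls and on a dispersion drawn toward that of all regions of a kind. A region whose libraries scatter widely can therefore still have a small p.

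The genes were given by name, and per gene up to 3 tiles with the largest rise and 3 with the largest fall among those called without overlap between groups were eligible to be named, as were genes starting within an interval, the 4 listed partners with the largest change and the 3 genes most like each. The members and lists were chosen with earlier results of these data known, and the stretches of tiles, the classes by level or CpG number and the comparison genes of similar level were chosen after values were seen. Alternatives were other promoter bounds, a shifted grid, other call minimums, a replicate block, Fisher's exact test on pooled calls, leaving out CpGs of the highest coverage or each library in turn, means over CpGs, and bodies without the first 2000 bp. Non-CpG calls were not analysed here.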

Additional observations from a re-analysis of the deposited data

How the results depend on the processing

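The counts of GATA promoters and tiles called in each direction were recomputed in 48 combinations of count and alternative, and 45 stayed within 1.5 times the main count. With at least 20 calls in every library 59 of the 199 remaining tiles were called lower and 83 higher, so that the balance turned. No genome share is given at this minimum, and the cause was not tested. With 1 canonical promoter per gene 0 promoters were called lower and 4 higher, since only 5 were counted. Leaving out 1 library at a time, with 2 libraries left in that group, gave 17 to 20 promoters called higher and 1 called lower, and 101 to 108 tiles called higher and 147 to 158 called lower. Promoters cut to 500 bp on either side gave 14 called higher and 1 lower. Fisher's exact test on pooled calls gave 21 promoters called higher. Deviations of same-numbered libraries had r of 0.00724 to 0.0114 over canonical promoters, and those of differently numbered libraries had r of -0.0161 to 0.00701. Over tiles the ranges were -0.000515 to -9.33e-05 for same-numbered and -0.000702 to 0.00117 for differently numbered libraries. At this depth such values cannot settle whether the numbers pair the libraries. With the replicate block 20 promoters were called higher and 1 lower, and 94 tiles higher and 142 lower. Of 95 combinations of a single difference and an alternative 87 kept their side of the threshold or, without a test, stayed within the spread between libraries. None of the differences that passed the test changed sign; that of the GATA6 canonical promoter, not called, went from -0.470 to 0.0303 points without Conventional replicate 2. The others were the GATA3 canonical promoter without 1 of 3 libraries, given above, and 5 means over CpGs, where the GATA6 body fell by 23.2 points and the GATA4 body fell by 5.19, and where the GATA3 body rose by 9.75 points and the canonical promoters of GATA2 and GATA3 by 13.7 and 2.80 points. Without its first 2000 bp the GATA2 body rose by 3.78 points (adjusted p = 0.00125). At 2.51 to 3.49 calls per CpG, a tile that was not called is not shown to be unchanged.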
